A study of Mus musculus with 10 samples.

Results

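Male germ cells make many mRNAs days before the proteins are needed, hold them in ribonucleoprotein particles and release them to ribosomes later, when the chromatin of the spermatid is already being packed. RNA-binding proteins mask these mRNAs or regulate their poly(A) tails, and poly(A) polymerases in the cytoplasm can lengthen the tails of some mRNAs. Genes of this system were measured here in WT and GRTH-KI germ cells: Ybx1, Ybx2 and Ybx3, which encode Y-box proteins that coat stored mRNAs, Dazl, Cpeb1, Elavl1, Celf1 and Dazap1, which encode proteins that bind sequences in mRNA, Papolb, the testis-specific poly(A) polymerase TPAP, and Adad1, a testis-specific protein with an RNA-binding domain. They were chosen by gene symbol. All 10 symbols were found among the 15507 genes of the table, and all 10 passed the filter on low counts that left 15389 genes for testing.

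GRTH is an RNA helicase of germ cells, encoded by Ddx25 in the mouse, and takes part in the transport and translation of mRNAs in spermatids. The KI mice were homozygous for a human GRTH gene with an Arg-to-His missense mutation, and the WT mice carried the mouse gene. The testes of mice aged 45 days, 5 of each genotype, were digested with collagenase and trypsin to free the germ cells, and 1 poly(A) RNA library was made per mouse, so that spermatogonia, spermatocytes and spermatids were measured together. Libraries are named here by genotype and number as labelled.

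The deposited values are read counts per gene divided by a size factor for each library, called normalized counts here. They rest on 13323024 to 16422347 reads on genes per WT library and 12722086 to 15500582 per KI library, and 3 reads correspond to a normalized count of 2.61 to 3.62, which is the limit that a count of 0 leaves and covers counting error only. The least abundant of the 10 genes, Cpeb1, had 107 to 214 reads per library. Ddx25, the targeted gene, stood at 7615, 7782, 5198, 11101 and 9458 normalized counts in WT libraries 1 to 5, against 146, 194, 161, 2.88 and 1.84 in KI libraries 1 to 5. KI libraries 4 and 5 thus differed from the other KI libraries at the targeted gene. Reads were aligned to the mouse genome, so that mRNA of the human gene in KI may not have been counted in full at Ddx25. These values therefore do not give the level of GRTH mRNA in KI. Libraries 4 and 5 of both genotypes also stood apart from libraries 1 to 3, which the study's alignment summary separates by mean read quality. Replicates compared as counts gave a chi-square of 2.66 to 9.88 per degree of freedom among libraries 1 to 3 of a genotype and of 21.7 to 46.6 across the split. Libraries 4 and 5 also differed from each other, at 13.3 in WT and 17.1 in KI. Differences of the 10 genes between genotypes were therefore also compared between the sets of libraries.

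Markers of the cell types show what the preparations held. All marker genes in the table had reads in every library. Summed over 10 markers, elongating spermatid mRNA stood at 248700 to 443054 normalized counts in WT and 35784 to 71733 in KI, and all 10 markers fell (median log2 fold change −2.53). Of 10 round spermatid markers 1 fell (Lyzl1, log2 fold change −1.04), 6 were lower at the adjusted p alone and the median was −0.45, with sums of 26514 to 31221 in WT and 15483 to 25104 in KI. None of 10 spermatocyte markers and none of 8 spermatogonial markers reached both an adjusted p of 0.05 and a fold of 1.5, although Spo11 (log2 fold change −0.41, limma, adjusted p = 0.0232) and Gfra1 (−0.48, limma, adjusted p = 0.0202) passed the first. These lists had summed levels of 14784 to 21456 and 2119 to 2864 in WT and 13921 to 19087 and 2441 to 2843 in KI. Leydig cell markers rose in 4 of 8 cases, with a summed level of 11042 to 19764 in WT and 15952 to 27283 in KI. Macrophage markers rose in 4 of 7 cases (621 to 816 and 896 to 1294), endothelial markers in 2 of 5 (265 to 365 and 424 to 805) and myoid markers in 2 of the 4 tested (120 to 208 and 191 to 236). Of 8 Sertoli cell markers none was called (5957 to 9832 and 6115 to 10491), and of 5 red blood cell markers 1 rose and 1 fell (403 to 605 and 527 to 981). In such bulk RNA, fewer cells of a type and less RNA per cell cannot be told apart.

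Y-box proteins take their name from the Y box of promoters, a sequence with ATTGG at its core, which reads CCAAT on the other strand. The 250 bases before the transcription start are shown for the 2 genes whose levels differed most clearly between genotypes, Papolb and Elavl1, and for the Y-box genes Ybx1 and Ybx2, whose ratio is described further on. The sequences are from RefSeq (GRCm38.p6), written 5′ to 3′ on the strand of the gene, and capitals mark each ATTGG or CCAAT. Papolb is at chr5:142530077-142530326, Elavl1 at chr8:4325101-4325350 and Ybx1 at chr4:119294514-119294763, all on the minus strand, and Ybx2 is at chr11:69935649-69935898 on the plus strand.
Papolb: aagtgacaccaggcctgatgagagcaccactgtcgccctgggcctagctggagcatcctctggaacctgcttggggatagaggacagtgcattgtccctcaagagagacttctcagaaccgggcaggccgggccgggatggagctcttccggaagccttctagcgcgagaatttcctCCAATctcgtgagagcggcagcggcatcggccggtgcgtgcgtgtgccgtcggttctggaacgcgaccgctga
Elavl1: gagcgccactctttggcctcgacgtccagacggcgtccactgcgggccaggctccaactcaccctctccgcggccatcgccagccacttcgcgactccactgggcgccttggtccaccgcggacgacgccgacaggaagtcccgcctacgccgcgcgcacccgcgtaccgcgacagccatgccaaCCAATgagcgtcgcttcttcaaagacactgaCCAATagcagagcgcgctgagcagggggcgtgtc
Ybx1: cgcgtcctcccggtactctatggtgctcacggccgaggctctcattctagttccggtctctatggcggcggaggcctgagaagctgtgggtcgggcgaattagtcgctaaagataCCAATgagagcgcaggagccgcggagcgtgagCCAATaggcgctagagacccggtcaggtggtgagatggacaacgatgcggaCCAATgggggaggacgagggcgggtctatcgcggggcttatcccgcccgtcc
Ybx2: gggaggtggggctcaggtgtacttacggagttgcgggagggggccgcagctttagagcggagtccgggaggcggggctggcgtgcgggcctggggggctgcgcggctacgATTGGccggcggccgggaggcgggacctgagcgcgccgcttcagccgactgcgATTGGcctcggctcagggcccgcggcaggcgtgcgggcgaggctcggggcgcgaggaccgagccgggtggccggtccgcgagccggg
The window of Ybx1 held the 5 letters 3 times, those of Ybx2 and Elavl1 2 times and that of Papolb 1 time. Promoter windows were found for 9 of the 10 genes, and Dazl, with 1 match, was the other gene whose window held the letters. The windows of Ybx3, Cpeb1, Celf1 and Dazap1 and a further start of Ybx2 held none. This made 5 of 10 windows, against 33.8% of all 32851 promoter windows and 9 of 23 windows of the stored mRNAs described below. A match of 5 letters is a description of the sequence and no sign of binding.

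Papolb, whose protein extends poly(A) tails in the cytoplasm of spermatogenic cells, was the gene of this group with the largest difference. Its normalized count was 15240.0, 17549.5, 15326, 20422 and 16913 in WT libraries 1 to 5 and 12426, 14256, 12956, 14693 and 12471 in KI libraries 1 to 5. Every KI library lay below every WT library. WT libraries had a mean of 17090.2 ± 2114 and KI libraries of 13360.3 ± 1049 (SD, n = 5 each). The log2 fold change was −0.35 (SE 0.11, 95% interval −0.58 to −0.12, limma, adjusted p = 0.0269), or 21.6% less on the log scale of the fit. In each of the 5 pairs of equal library number the KI library was the lower. Papolb passed the adjusted p of 0.05 and did not reach the fold of 1.5 that the study required for differential expression. The gene is on the minus strand of chromosome 5 (142527740 to 142530076, mm10), a span of 2337 bases, inside the gene Radil on the same strand. Radil, whose reads could overlap those of Papolb, had a mean of 892 in WT and 1016 in KI, with a log2 fold change of 0.18 that limma did not call (adjusted p = 0.195). Over 25 alternative settings the fold change of Papolb stayed below 0 (−0.46 to −0.12) with adjusted p between 0.00403 and 0.439, and its adjusted p was above 0.05 in 8, among them leaving out WT library 2 (adjusted p = 0.0592), WT library 4 (0.0649), KI library 1 (0.0638) or KI library 3 (0.0592). The round spermatid markers, with their median of −0.45, moved in the same direction, and their part in the difference was not tested.

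Elavl1 encodes HuR, a widely expressed protein that binds AU-rich elements of mRNA. It stood at 1598, 1615, 1477, 1602 and 1474 normalized counts in WT libraries 1 to 5 and at 1794, 1757, 1682, 1915 and 2007 in KI libraries 1 to 5. Every KI library lay above every WT library. WT libraries had a mean of 1553 ± 71.3 and KI libraries of 1831 ± 129 (SD, n = 5 each). The log2 fold change was 0.24 (SE 0.08, 95% interval 0.06 to 0.41, limma, adjusted p = 0.0492), or 17.7% more. The fold change stayed above 0 in all 25 alternatives (0.16 to 0.46), but its adjusted p by limma, edgeR or DESeq2 ranged from 0.000343 to 0.155 and was above 0.05 in 15 of them. Leaving out any 1 library other than KI library 3 took the adjusted p above 0.05, to between 0.0587 and 0.110. Markers of Leydig cells, macrophages and endothelial cells rose in KI as well, in the numbers given above, and their part in the difference was not tested.

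None of the 10 genes was differentially expressed by limma at an adjusted p under 0.05 and a fold of at least 1.5, where 14.4% of all genes tested were (8.22% lower and 6.13% higher in KI). Papolb and Elavl1 were the 2 genes with an adjusted p under 0.05 at any fold, a share to be read against 22.9% of all genes, and the same 2 passed an unadjusted p of 0.05. They were also the 2 genes whose libraries did not overlap between genotypes, as for 17.7% of all genes. By edgeR and DESeq2 on the recovered reads none of the 10 was called either. With the authors' size factors, the 95% interval of the fold change lay inside a 1.5-fold change in either direction for all 10 genes, against 54.0% of all genes. That of Papolb was only just inside, with its far end at 1.49-fold. The median log2 fold change of the 10 was −0.04 and that of all genes 0.03, with 6 of the 10 fitted below 0 and 4 above. Of the reads on genes, the 10 together took 0.737% ± 0.0772 in WT and 0.791% ± 0.0531 in KI (SD, n = 5 each). An exact two-sided permutation test over 252 arrangements, which took no account of the library sets, gave p = 0.230. In libraries 1 to 3 the shares were 0.659%, 0.694% and 0.701% in WT and 0.733%, 0.795% and 0.792% in KI. In libraries 4 and 5 they were 0.848% and 0.784% in WT and 0.874% and 0.760% in KI. The summed normalized counts went the other way, with means of 117427 in WT and 107914 in KI.

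**Figure D1:**
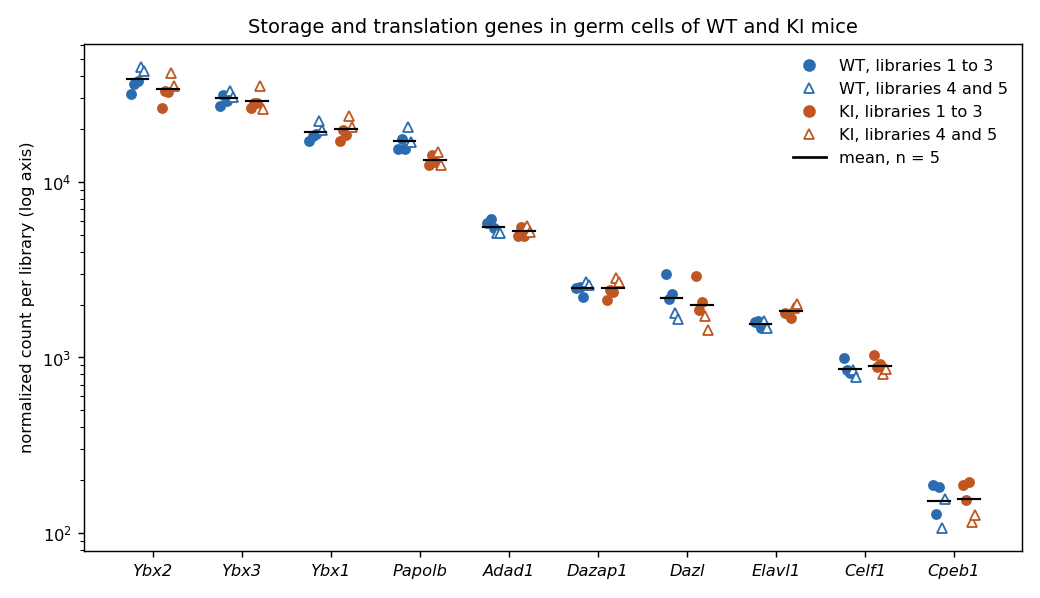
Normalized count of each of the 10 genes (log axis) in 5 WT libraries (blue) and 5 KI libraries (orange), with filled circles for libraries 1 to 3, open triangles for libraries 4 and 5 and a bar at the mean. Papolb and Elavl1 are the 2 genes whose genotypes do not overlap, and the triangles of Dazl lie below all its circles.

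The Y-box genes had the highest mean normalized counts of the group, not corrected for length. Ybx2 encodes MSY2, the germ cell Y-box protein that holds a large part of the poly(A) RNA of spermatids in particles. Its normalized counts were 31647, 35918, 37350.2, 44867 and 42705 in WT libraries 1 to 5 and 26277, 32700.2, 32353, 41321 and 35140.1 in KI libraries 1 to 5. The ranges overlapped, although the KI library was lower in each of the 5 pairs of equal number. The log2 fold change was −0.20 (95% interval −0.50 to 0.09, limma, adjusted p = 0.329, and 0.125 with the library number as a block), and the lower end of the interval was a fall of 1.41-fold. Ybx1, the Y-box gene expressed in most tissues, ranged from 17027 to 22098 in WT (median 18722) and from 16955 to 23731 in KI (median 19659), with a log2 fold change of 0.05 (95% interval −0.19 to 0.29). Ybx1 has processed pseudogenes in the mouse genome, so that some of its reads may have been assigned to copies or from them. Ybx3, which encodes MSY4, a partner of MSY2, ranged from 26893 to 32719 in WT (median 30221) and from 25880 to 34913 in KI (median 27905), with a log2 fold change of −0.07 (95% interval −0.31 to 0.17).

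A ratio of related genes within a library does not depend on how the libraries are scaled. Ybx2 over Ybx1, as the log2 ratio of their normalized counts, was 0.89, 0.98, 1.00, 1.02 and 1.13 in WT libraries 1 to 5 and 0.63, 0.73, 0.82, 0.80 and 0.78 in KI libraries 1 to 5. All KI ratios lay below all WT ratios, a difference of −0.25 in the mean (exact two-sided permutation test, p = 0.00794, the smallest that 5 against 5 libraries can give). Adjusted over the 8 ratios of related genes that were compared, its value was 0.0635. With 8 ratios a single ratio without overlap cannot reach 0.05 in this design, so that this says nothing about the difference. Papolb over Papola, the gene of the poly(A) polymerase of other tissues, differed by −0.25 (WT 2.58 to 3.03, KI 2.30 to 2.58, exact permutation p = 0.0159, adjusted 0.0635). Ybx3 over Ybx1 differed by −0.12 (exact permutation p = 0.0635, adjusted 0.127) and Adad1 over Adad2 by −0.46 (exact permutation p = 0.0556, adjusted 0.127). Differences for Ybx2 over Ybx3 (−0.13), Dazl over Boll (−0.05), Cpeb1 over Cpeb2 (0.04) and Celf1 over Celf2 (−0.09) had exact permutation p of 0.206, 0.857, 0.937 and 0.619. Without WT library 1 both Ybx2 over Ybx1 (−0.28) and Papolb over Papola (−0.28) passed, and without WT library 4 Ybx2 over Ybx1 (−0.25) and Adad1 over Adad2 (−0.59) did, each at an adjusted exact permutation p of 0.0317 over the 8 ratios. In each case the library left out was the only WT library that overlapped with KI in the other ratio. The exact permutation p of Ybx2 over Ybx1 stayed at 0.00794, so that these passes add nothing to it.

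**Figure D2:**
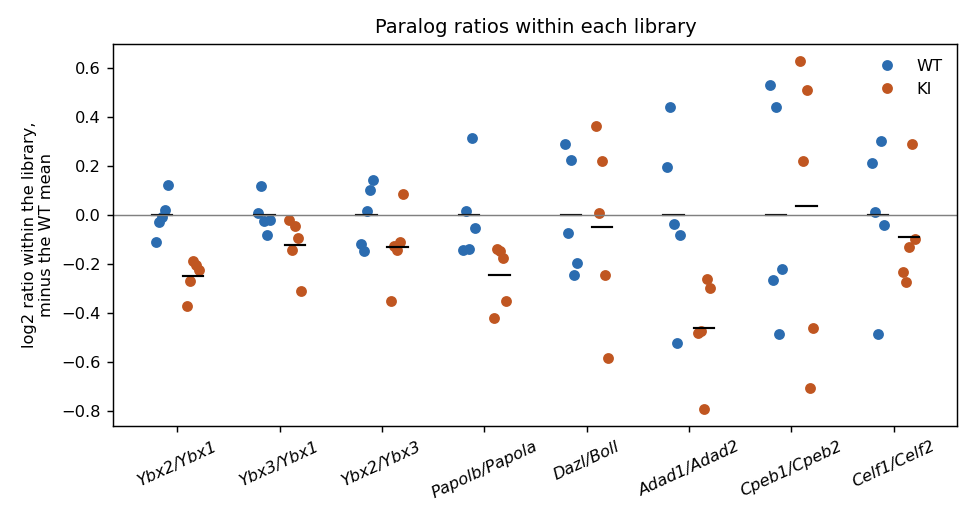
Log2 ratio of 2 related genes within each library, shown as the difference from the WT mean of that ratio, for 5 WT libraries (blue) and 5 KI libraries (orange), with bars at the means. For Ybx2 over Ybx1 the KI libraries all lie below the WT libraries, with a mean difference of −0.25, and for the other ratios the genotypes overlap.

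Among the proteins that bind sequences in mRNA, Dazl and Cpeb1 act early, in the mitotic and meiotic cells. Dazl, which encodes a germ cell protein that recruits mRNAs to translation, was at 2972, 2153, 2290.0, 1778 and 1660.3 normalized counts in WT libraries 1 to 5 and at 2915, 1852, 2067, 1713 and 1431 in KI libraries 1 to 5. The genotypes overlapped over nearly the whole range, although the KI library was lower in each of the 5 pairs of equal number. The log2 fold change was −0.13 (95% interval −0.52 to 0.25, limma, adjusted p = 0.656), with an SE of 0.18 that fell to 0.07 with the library number as a block (adjusted p = 0.159). Cpeb1, which encodes a protein that binds the cytoplasmic polyadenylation element and can repress or activate its targets, was the least abundant. Its counts were 188, 128, 184, 107 and 156 in WT libraries 1 to 5 and 189, 155, 195, 116 and 127 in KI libraries 1 to 5, also with overlapping genotypes (log2 fold change 0.04, 95% interval −0.36 to 0.43, limma, adjusted p = 0.919). The spread of these 2 genes between libraries of a genotype, with coefficients of variation of 22.6% to 28.2%, was the widest of the 10. For the other genes these coefficients were between 4.59% and 16.2%.

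Celf1 (CUG-binding protein 1, a regulator of deadenylation) ranged from 773 to 996 in WT and from 803 to 1039 in KI, with a log2 fold change of 0.07 (95% interval −0.14 to 0.28). Dazap1, whose protein binds DAZ family proteins and mRNA, ranged from 2221 to 2682 in WT and from 2134 to 2847 in KI, with a log2 fold change of −0.01 (95% interval −0.21 to 0.19). Adad1 ranged from 5100.4 to 6099 in WT and from 4912 to 5611 in KI (log2 fold change −0.08, 95% interval −0.26 to 0.11). Adad1 holds 2 processed pseudogenes within its span on its own strand, and Dazap1 overlaps an antisense gene, Gm15122. No source says that reads were counted by strand, and without it reads of Dazap1 and its antisense partner cannot be told apart. The lowest adjusted p of these 3 genes by limma was that of Adad1, 0.591.

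Libraries 4 and 5 were set against libraries 1 to 3 in a fit with genotype, a comparison added after seeing the data. For 7 of the 10 genes the fitted difference between these sets was larger than that between genotypes. The same count was not made over all genes. Several of the 10 had genotype differences near 0 (Dazap1 −0.01, Cpeb1 0.04, Ybx1 0.05), so that the count does not describe these genes in particular. Dazl stood at 1852 to 2972 in libraries 1 to 3 and at 1431 to 1778 in libraries 4 and 5 of both genotypes, without overlap, a log2 difference of −0.51 (limma, adjusted p = 0.00570). Cpeb1 was lower in libraries 4 and 5 by a log2 difference of −0.45 (limma, adjusted p = 0.0350) and Ybx2 higher by 0.33 (limma, adjusted p = 0.0399). These 3 of 10 genes passed an adjusted p of 0.05, against 21.5% of all genes. Ybx1 (0.24, limma, adjusted p = 0.0813) and Dazap1 (0.20, limma, adjusted p = 0.0675) were also higher without passing. The summed spermatocyte markers moved as Dazl did, with 16076 to 21456 in libraries 1 to 3 and 13921 to 15251 in libraries 4 and 5, and their part in the difference was not tested. The genotype difference itself did not pass a test of unequal size between the sets of libraries for any of the 10 genes (limma interaction, adjusted p 0.379 to 0.998), where 0.247% of all genes did. Adad1 went from −0.18 in libraries 1 to 3 to 0.08 in libraries 4 and 5 and Cpeb1 from 0.12 to −0.09, while Papolb was at −0.28 and −0.46 and Elavl1 at 0.16 and 0.35.

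**Figure D3:**
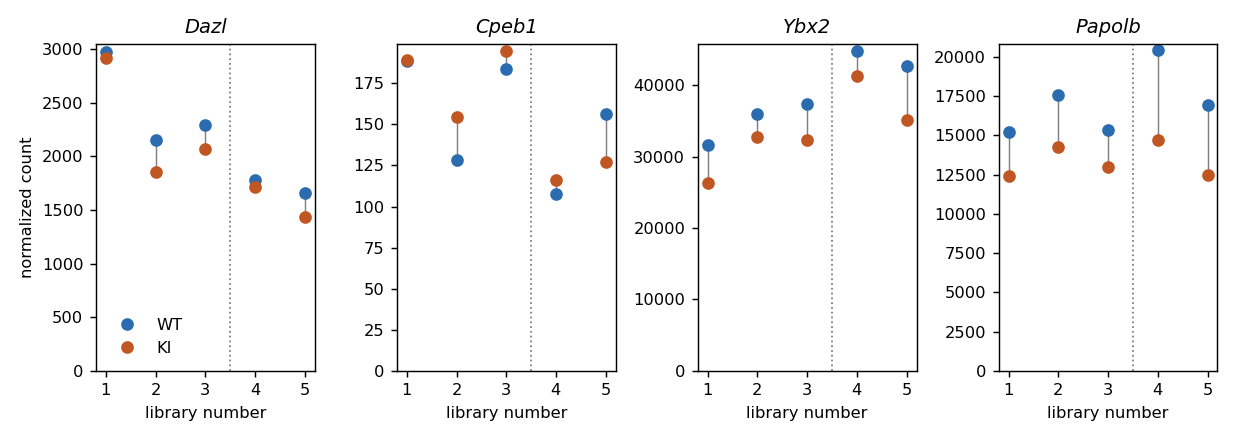
Normalized counts of Dazl, Cpeb1, Ybx2 and Papolb by library number, WT in blue and KI in orange, with a line joining libraries of equal number and a dotted line between libraries 1 to 3 and 4 to 5. Dazl is at or below 1778 in all 4 libraries of numbers 4 and 5, and Papolb is lower in KI at every number.

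Levels of different genes can be compared only per length. Divided by the exon bases that GENCODE places inside the span each gene has in the table, the WT means in normalized counts per kb were 21628 for Ybx2, 9836 for Ybx3, 7843 for Ybx1, 7313 for Papolb, 2731 for Adad1, 877 for Dazap1, 571 for Dazl, 155 for Elavl1, 102 for Celf1 and 38.8 for Cpeb1. The order was the same in KI. In WT the ranges of neighbours overlapped for Ybx3 and Ybx1, for Ybx1 and Papolb, and for Dazap1 and Dazl, so that their ranges over libraries did not separate these pairs. Within a library, Ybx3 was above Ybx1 in all 10 libraries, Ybx1 above Papolb in 9 and Dazap1 above Dazl in 9. In KI the libraries of Ybx1 and Papolb no longer overlapped. With all GENCODE exons, some of them outside that span, Papolb stood at 4032 per kb and the overlapping neighbours in WT were Dazap1 and Dazl alone.

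Of a list of spermatid and spermatocyte mRNAs chosen as known for delayed translation, most fell while the genes above stayed within 1.5-fold. They are called stored mRNAs here, and their storage was not measured. Of 20 such mRNAs, 15 fell and 0 rose, with a median log2 fold change of −2.05 (range −3.30 to −0.13), beside 0.03 over all genes. The list was written with earlier results of these samples known, so that its direction is not independent evidence. The largest falls were those of Prm2 (log2 fold change −3.30, SE 0.25), Tssk6, a spermatid kinase (−3.02, SE 0.21), Prm1 (−2.82, SE 0.32) and Smcp, of the sperm mitochondrial capsule (−2.74, SE 0.15), where Prm1 and Prm2 encode the protamines that replace histones. Prm2 had a mean of 89159 ± 25519.5 in WT libraries and 9282 ± 3127 in KI libraries (SD, n = 5 each). Tssk6 stood at a log2 fold change of −2.70 in libraries 1 to 3 and −3.50 in libraries 4 and 5. The 5 that were not called were Ldhc, Akap3, Acr, Zpbp and Izumo1. Of the 20 mRNAs 9 are also among the markers of elongating spermatids, and of the other 11, 6 were called. The elongating spermatid markers fell together with this list, and their part in it was not tested. Counted within a library, in 12 ratios chosen after seeing the data, Prm1, Prm2, Tnp1 and Tnp2 over Ybx2, Papolb or Elavl1 did not overlap between genotypes. These mRNAs are among the elongating spermatid markers and fell without overlap themselves, while Ybx2, Papolb and Elavl1 stayed within 1.5-fold. The separation of the ratios therefore follows from the falls already given and adds nothing to them. Prm2 over Ybx2 went from a log2 ratio of 1.17 ± 0.60 in WT to −1.92 ± 0.72 in KI, and Prm1 over Ybx2 from 0.22 ± 0.79 to −2.40 ± 0.85 (SD, n = 5).

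**Figure D4:**
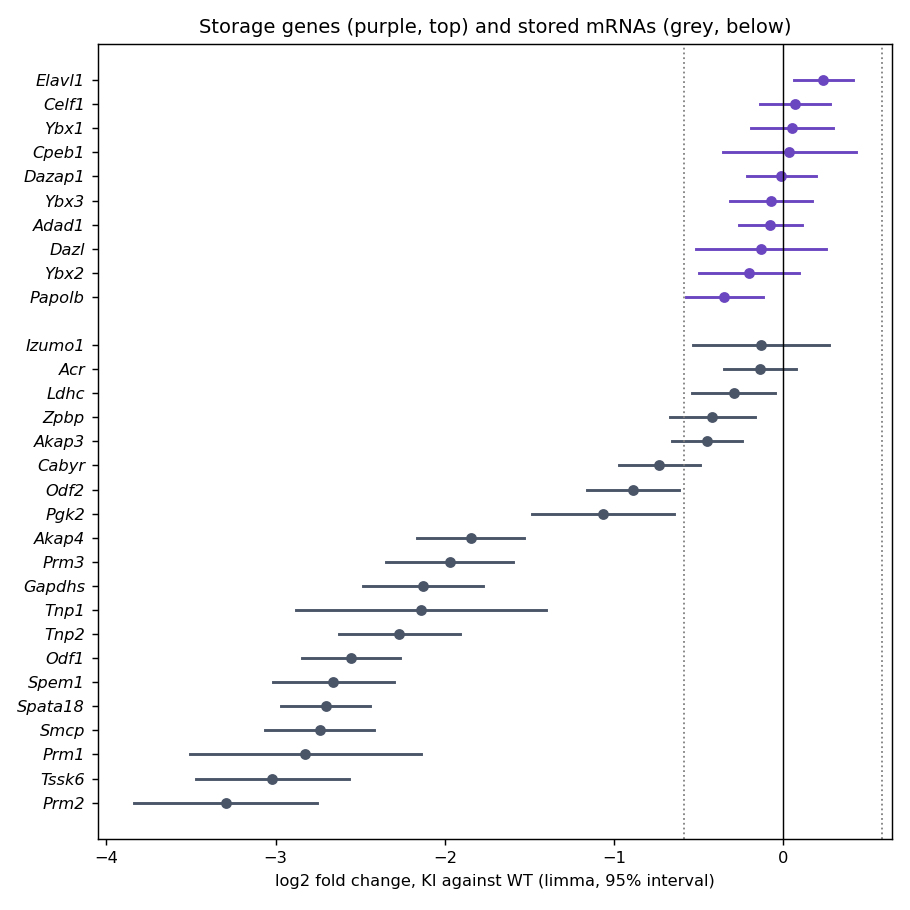
Log2 fold change of KI against WT with its 95% interval (limma) for the 10 storage genes (purple) and 20 stored mRNAs (grey), with dotted lines at a 1.5-fold change. All 10 purple intervals lie between the dotted lines, that of Papolb only just, and the grey points run from −0.13 to −3.30.

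Of 20 relatives of the 10 genes, 2 rose, 3 fell and 15 were not called, beside 14.4% of all genes called, with a median log2 fold change of 0.04. Cpeb3, a paralog of Cpeb1, fell from 1330 ± 302 to 581 ± 72.9 (SD, n = 5; log2 fold change −1.17, SE 0.14), without overlap of the libraries. Carhsp1, a small cold shock domain protein, fell by 0.73 on the log2 scale (SE 0.13). Elavl4, a neuronal relative of Elavl1, was low and fell from 35.8 ± 13.8 to 13.0 ± 5.03 (SD, n = 5; log2 fold change −1.38, SE 0.35), and Elavl3 rose, from 44.2 to 80.5 in WT libraries to 76.4 to 115 in KI libraries (log2 fold change 0.74, SE 0.19). Lin28a, a cold shock domain protein of undifferentiated spermatogonia that blocks let-7 processing, rose from 81.7 ± 11.4 to 130 ± 25.2 (SD, n = 5; log2 fold change 0.65, SE 0.16), also without overlap. Elavl3, Lin28a and Elavl4 passed the adjusted p in every alternative except that of libraries 4 and 5 alone. Lin28a stood at a log2 fold change of 0.83 in libraries 1 to 3 and 0.38 in libraries 4 and 5, and Elavl4 at −1.66 and −0.95.

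Of 29 other repression and granule genes tested, 2 fell and 0 rose, beside 14.4% of all genes called, with a median log2 fold change of 0.05. They were Fxr1, a relative of the fragile X protein, with 11409 ± 2048 in WT and 6223 ± 483 in KI (SD, n = 5; log2 fold change −0.86, SE 0.12), and Eif4e, the cap-binding protein, with 2406 ± 420 and 1475 ± 136 (SD, n = 5; −0.69, SE 0.12). Both were lower in every KI library than in any WT library, and Fxr1 stood at −1.11 in libraries 1 to 3 and at −0.48, missing the adjusted p, in libraries 4 and 5 alone. Eif4e stood at −0.83 and −0.49. Ddx6, Eif4enif1, Lsm14a, Fmr1 and Caprin1 were among the 27 that were not called. Of those 27, Msi2 (log2 fold change −0.44, limma, adjusted p = 0.00214) and Igf2bp3 (−0.48, limma, adjusted p = 0.00372) passed the adjusted p, both lower without overlap. Msi1 (0.30, limma, adjusted p = 0.0446) passed it in the other direction. Ddx4 (−0.25, limma, adjusted p = 0.0918) did not pass but was lower without overlap. Another 6 genes of the list were not analysed here.

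Of 35 genes of the poly(A) tail machinery, 1 rose and 3 fell, beside 14.4% of all genes called, with a median log2 fold change of −0.02. Tent5c, a noncanonical poly(A) polymerase, fell from 12227 ± 1570.4 to 6297 ± 462 (SD, n = 5; log2 fold change −0.95, SE 0.10). Cpsf4l, a relative of a cleavage and polyadenylation factor (−0.66, SE 0.15), and Tent4b (−0.61, SE 0.11) fell too. Tent5a rose from a low 15.6 ± 6.56 to 34.2 ± 6.66 (SD, n = 5; log2 fold change 1.15, SE 0.28). All 4 were without overlap between genotypes, but Tent4b and Tent5a missed the adjusted p in libraries 4 and 5 alone, as Tent4b did under spermatocyte marker scaling. Tent4b stood at −0.85 in libraries 1 to 3 and −0.24 in libraries 4 and 5. Of 7 mRNAs known as targets of DAZL, CPEB1, TPAP or HuR, Crisp2 alone fell (log2 fold change −0.79, SE 0.14), beside the same 14.4% of all genes, and the median was 0.05.

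**Figure D5:**
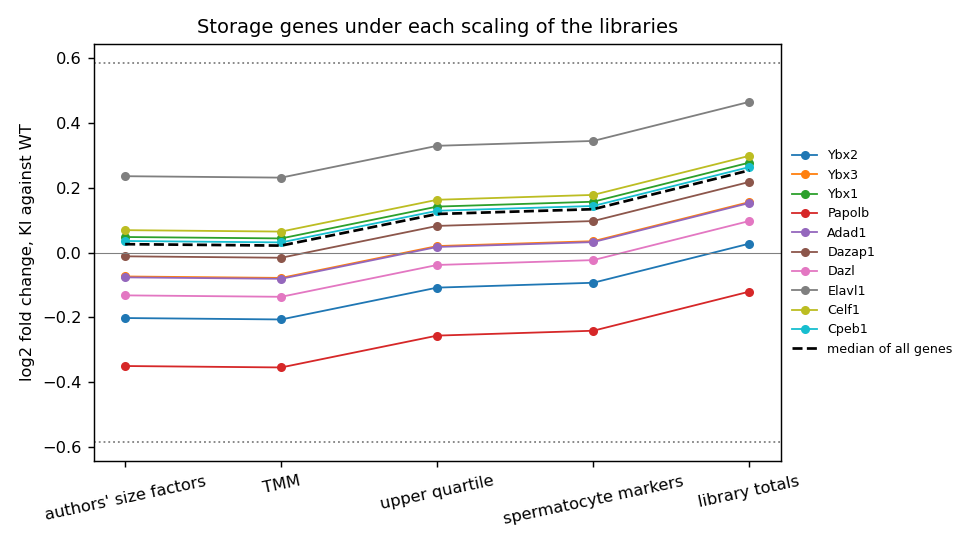
Log2 fold change of the 10 genes, KI against WT, under 5 ways of scaling the libraries, with the median of all genes as a dashed line and dotted lines at a 1.5-fold change. The dashed line moves from 0.03 with the authors' size factors to 0.25 with library totals. The 10 lines run parallel to it because a scaling shifts all genes of a library alike.

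The direction of small differences depended on the scaling. With equal library totals the median log2 fold change of all genes moved to 0.25, and 73.1% of the called genes were higher in KI in place of 42.7%. That share was 55.8% with upper quartile scaling and 53.4% with scaling to spermatocyte markers. With equal library totals Ybx2, Ybx3, Dazl, Adad1 and Dazap1, none of them called, went from below 0 to 0.03, 0.16, 0.10, 0.15 and 0.22. Papolb remained below 0, at −0.12, and Elavl1 above it, at 0.46. Relative to the median of all genes Papolb was 0.38 lower with the authors' size factors and 0.37 lower with library totals, and Elavl1 was 0.21 higher under both. A new scaling shifts all genes of a library alike, so that this match was fixed in advance and tests nothing. The adjusted p of Papolb by limma was 0.315 with library totals and 0.439 with scaling to spermatocyte markers.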

How the data were processed

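The authors aligned the trimmed reads to mm10 with STAR, used the E/M model of Partek to count reads per RefSeq gene and divided each library's counts by its DESeq2 size factor. The deposited signal, a normalized count per gene and library, was used as it is. Division by what 1 read is worth in a library gave whole reads for 100% of those values that lie under 5000 reads (within 0.1 read). The value of 1 read differed from DESeq2's size factors on the recovered reads by at most 0.000399 percent. Columns of values not assigned to a library numbered 0. No 2 libraries agreed within counting noise.

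Genes passing filterByExpr of edgeR (version 4.0.16) by genotype were tested with limma (version 3.58.1, R 4.3.3) on log2(normalized count + 1) with a variance trend, with Benjamini-Hochberg adjustment over the 15389 genes. A gene was called, and is said to have risen or fallen, where the fold was at least 1.5 and the adjusted p under 0.05. Ratios and shares were compared by permuting the libraries exactly (two-sided). The quasi-likelihood test of edgeR and DESeq2 (version 1.42.0), both on recovered reads, other scalings, filters, pseudocounts and thresholds, a replicate block, a library group term, each library group alone and leaving out each library were the alternatives. The script was checked on simulated data with known changes.

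The genes and all gene lists were chosen with earlier results of these data known. In addition to the 10 genes and Ddx25, up to 4 called genes per direction and list with the largest changes and the genes of the paralog ratios were named. Names outside this rule were chosen after values were seen: the uncalled genes and markers, Lyzl1 and Radil. After removing genotype means, libraries of equal number correlated with r of 0.306, 0.105, 0.280, 0.216 and 0.462. Their mean r with libraries of other numbers in the other genotype was −0.0519, −0.0146, −0.0365, −0.0719 and −0.159. These means mix both sets of libraries, so that a pairing by number cannot be told apart from the split. The labels give no pairing. The numbers were treated as pairs from the data, with no statement of what a number stands for. Exon lengths and overlaps are from GENCODE, promoters from RefSeq. The authors' proteins, immunoprecipitation and histology were not analysed here.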

Additional observations from a re-analysis of the deposited data

Results flagged for a closer look

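Of 96 groups of 5 libraries examined, 5 held a library far from the other 4, and chance gives about 1 in 20. Ybx3 stood at 34912.6 in KI library 4 and between 25880 and 27953 in the other KI libraries. In KI library 5, Smcp stood at 3347.12 (others 4716 to 4935), the summed stored mRNAs at 135949 (others 174583 to 190240.0) and the summed red blood cell markers at 980.766 (others 527 to 635). The summed targets of DAZL, CPEB1, TPAP and HuR stood at 73341.8 in KI library 4 and between 62759 and 65710 in the others.

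The lower count at the mouse gene Ddx25 in KI, which may miss mRNA of the human gene, differed in size between the sets of libraries. Libraries 1 to 3 gave a log2 fold change of −5.34 and the other libraries one of −11.59, an interaction of −6.25 (limma, adjusted p = 1.12e-10). KI libraries 4 and 5 held 3 and 2 reads of Ddx25, so that the second value depends on the pseudocount. The cause was not tested.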

How the results depend on the processing

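No named gene past the adjusted p changed sign in any alternative, while 5 of the 10 genes, none past it, did so with equal library totals. The count of called stored mRNAs, 15, stayed within 1.5 times under all alternatives. Among the 10 genes, 0 were called under every alternative that kept the fold threshold, and 2 without it. An adjusted p under 0.05 at any fold was reached by 2 genes, by 1 under TMM or upper quartile scaling, under edgeR with TMM or DESeq2 factors and in libraries 1 to 3 alone, and by 0 under spermatocyte marker scaling and in libraries 4 and 5 alone. Leaving out 1 library gave 0 to 1 genes, with 0 without WT library 2, WT library 4 or KI library 1. Genes without overlap numbered 1 under upper quartile scaling and 0 under spermatocyte marker scaling. With equal library totals Ybx1 (0.28, adjusted p = 0.0324) and Celf1 (0.30, adjusted p = 0.0404) passed the adjusted p in limma.

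With the library number as a replicate block, Papolb had an adjusted p of 0.00618 and Elavl1 of 0.0246 in limma, against 0.0269 and 0.0492 without it. A block cannot change the fold changes of libraries that all have a partner (−0.35 and 0.24 here). The largest fold of the 10 genes was 1.27, so that 0 called genes was fixed in advance and says nothing about the pairing.

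Of the relatives, 5 were called, 2 in libraries 4 and 5 alone and 8 without the fold threshold. Of the repression and granule genes, 2 were called, 1 with equal library totals or spermatocyte marker scaling, 0 in libraries 4 and 5 alone and 5 without the fold threshold. Of the poly(A) genes, 4 were called and 2 under upper quartile scaling, spermatocyte marker scaling or in libraries 4 and 5 alone. Of the targets, 1 was called and 0 with equal library totals. Paralog ratios past the adjusted threshold numbered 0, where 1 ratio without overlap alone cannot pass, and 0 to 2 when 1 library was left out. They numbered 2 where the library left out was the only WT library that overlapped with KI in 1 of the ratios. Neighbours overlapping in level per length in WT numbered 1 with all exons and 3 with the exons inside the span of the table, an alternative added after seeing the data. The causes were not tested. Libraries 4 and 5 alone leave 2 against 2, and among the 10 genes depth limits Cpeb1 most, which had the fewest reads.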
